A study of Homo sapiens with 10 samples.

Results

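The genes described here are those whose response to interferon-beta (IFN-β) differed most between 3 esophageal squamous cell carcinoma (ESCC) cell lines. For each gene the log2 ratio of the treated to the untreated library was taken in KYSE30, KYSE180 and KYSE450, and the mean ratio of the other two lines was subtracted from that of each line. This line difference reached 2 log2 units, higher or lower, in at least 1 line for 49 of 8997 genes (0.545%). The 8997 genes had a mean over the 6 libraries of at least 5 FPKM. FPKM are fragments per kilobase of gene, scaled to the number of mapped fragments of the library. These values add up to nearly the same sum in every library, 988427 to 993533, and whether they were rescaled after that calculation is unknown. In all, 20502 named genes were listed, and the long non-coding RNA part of the tables was kept apart. Because these ratios chose the genes, they are given as a description and no test is made of them.

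Gene expression was measured by RNA sequencing of total RNA. The groups are untreated cells, which received phosphate-buffered saline (PBS), and cells that received IFN-β at 1000 IU/ml, both for 72 h. KYSE30, KYSE180 and KYSE450 are established human ESCC lines, cultured without other cell types, and each gave 1 library per group. A further experiment of the same study, used here only for levels without added IFN-β, held 1 vector control and 1 IRF1-AS knockdown library of KYSE30 and of KYSE180, made by lentiviral infection. IRF1-AS is transcribed opposite IRF1, a transcription factor gene.

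There are no replicate cultures, so no value below has a replicate error and no difference between lines could be tested. FPKM carry no read counts, and the sequencing depth is unknown. Ratios are log2(FPKM + 1) after each library was scaled by the median of its ratios to the typical library, so changes at low values are compressed. The FPKM quoted below are unscaled. In KYSE450 the median ratio of all 8997 genes was 0.44 without scaling and -0.05 with it, so pairs of FPKM there overstate a rise. In bulk RNA of a culture, a response in fewer cells and a smaller response in each cell cannot be told apart.

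IFN-β binds a receptor made of IFNAR1 and IFNAR2, and the kinases JAK1 and TYK2 then phosphorylate STAT proteins such as STAT2. STAT2 acts with IRF9 in a complex called ISGF3, which binds the interferon-stimulated response element (ISRE) in promoters of interferon-stimulated genes. The products include sensors of viral RNA, enzymes that attach the ubiquitin-like protein ISG15, and proteins that block viral entry, replication or release.

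A fixed list of type I interferon-stimulated genes had 61 members at 5 FPKM or more, and 24 of them (39.3%) were among the 49. Of the 8936 other genes, 25 (0.28%) were. The median log2 ratio of the 61 was 2.14 in KYSE180, 3.33 in KYSE30 and 3.63 in KYSE450. That of all 8997 genes was 0.05, -0.02 and -0.05. KYSE180 had the smallest of the 3 ratios for 43 of the 61, KYSE30 for 16 and KYSE450 for 2. KYSE450 had the largest ratio for 32. The list started higher in KYSE180, with a median untreated level of 8.85 FPKM against 4.03 in KYSE30 and 2.78 in KYSE450. It ended lower there, at a median of 39.4 FPKM in treated KYSE180, 54.6 in KYSE30 and 84 in KYSE450. Across the 61 genes the ratios of KYSE30 and KYSE450 had a Pearson r of 0.79, those of KYSE180 and KYSE450 0.67, and those of KYSE30 and KYSE180 0.53. Each r shares 1 library pair with the next, and genes are not independent replicates.

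Most of the list nevertheless responded in every line. A ratio of at least 1 log2 unit was found for 47 of the 61 in all 3 lines, and for 76 of all 8997 genes. OAS2, an oligoadenylate synthetase, had 7.07 in KYSE30, 6.55 in KYSE180 and 7.43 in KYSE450, and IFI27 had 8.01, 8.61 and 8.21. ISG15 went from 45.5 to 1686 FPKM (KYSE30), from 14.2 to 809 (KYSE180) and from 18.4 to 1571 (KYSE450). These genes were close across lines and are not among the 49.

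**Figure D1:**
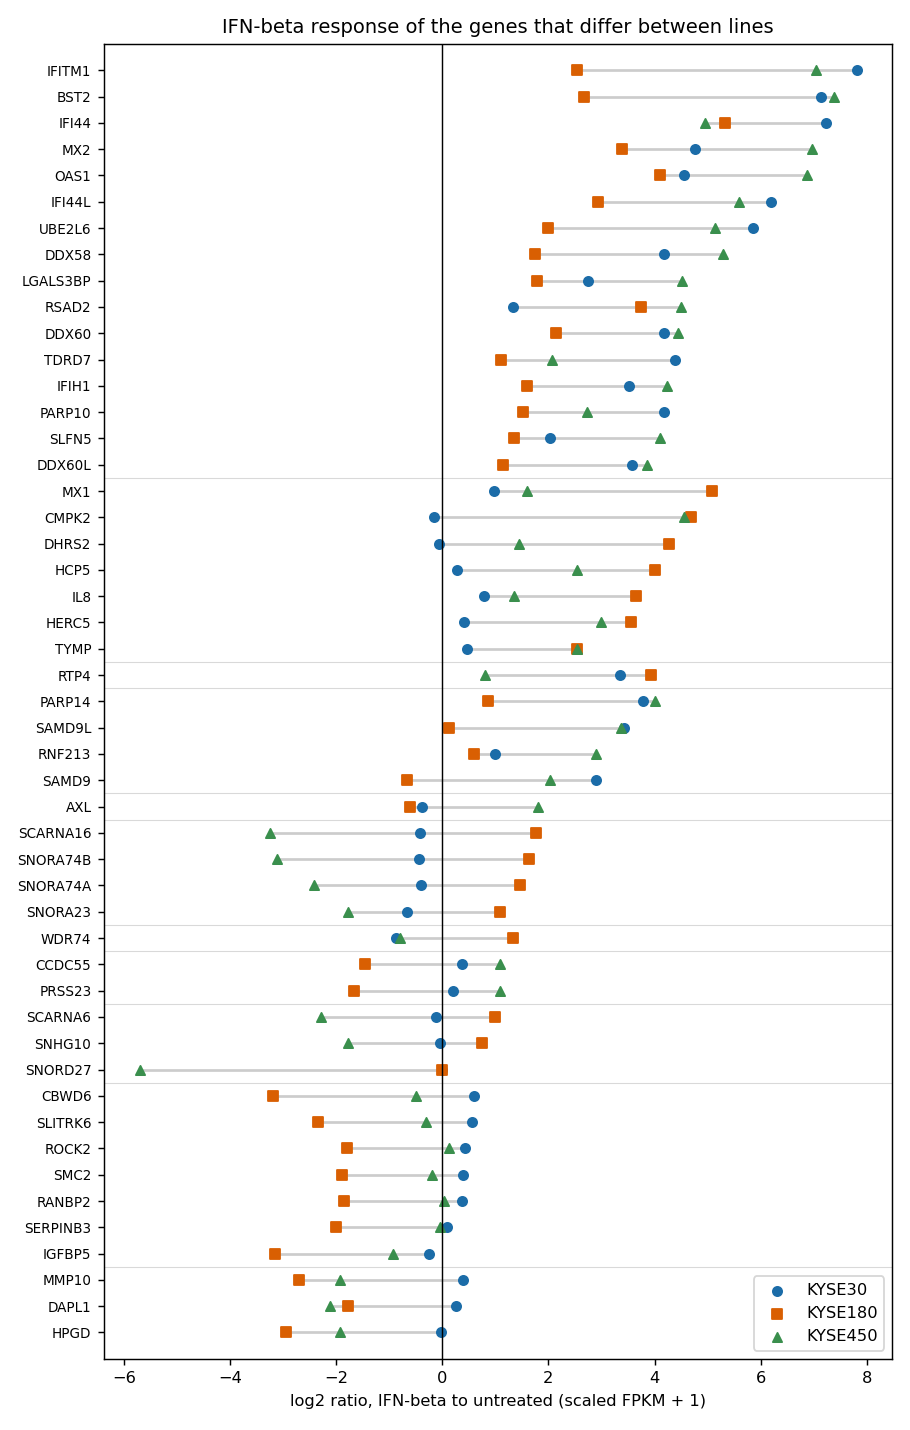
Log2 ratio of IFN-β-treated to untreated cells (horizontal axis, scaled FPKM + 1) for the 49 genes whose response differed between lines, 1 point per line and gene and 1 library per group. Thin horizontal lines part the genes by direction of response: in the top block of 16 genes all 3 points lie at 1 or above, and in the block from MX1 to TYMP all KYSE30 points lie below 1, with MX1 at 0.98 and CMPK2 at -0.15.

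By their direction of response the 49 genes fall into several kinds, taking a ratio of 1 or more as up and of -1 or less as down. In 16 genes the ratio was up in all 3 lines, and all 16 are in the interferon-stimulated list. A further 14 were up in some lines and down in none, 13 were down in some and up in none, and 6 were up in 1 line and down in another. By biotype 41 of the 49 are protein-coding and 6 are small nucleolar or Cajal body RNAs. The other two, HCP5 and SNHG10, are non-coding. A line difference was reached in 1 line by 32 genes, in 2 lines by 14 and in all 3 by BST2, CMPK2 and SNORD27.

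None of the 21 measured genes of the receptor and JAK-STAT list reached 2 log2 units, a count near the share of all genes, and 3 of the 21 differed by at least 1, as did 457 of all 8997 (5.08%). IFNAR1 stood at 8.27 FPKM untreated and 8.83 treated in KYSE30, at 7.46 and 5.65 in KYSE180, and at 3.7 and 7.62 in KYSE450. Its scaled log2 ratios were 0.08, -0.28 and 0.43 in that order. IFNAR2 was lower, between 1.62 and 4.26 FPKM, with its highest value in treated KYSE450 and ratios of -0.05, -0.19 and 0.63. JAK1 lay between 16.2 and 53.7 FPKM and TYK2 between 4.6 and 17.9, each lowest in untreated KYSE450. Both receptor chains and both kinases were thus expressed in all 6 libraries.

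STAT2 went from 16.4 to 96.3 FPKM (KYSE30), from 22.9 to 40.6 (KYSE180) and from 11.1 to 66.5 (KYSE450). Its partner IRF9 went from 6.17 to 34.1, from 27.5 to 134 and from 1.53 to 48.8 FPKM in the same order. Treated KYSE180 therefore had the least STAT2 and the most IRF9 of the treated lines. The line difference of KYSE180 was -1.36 for STAT2, and that of KYSE450 was 1.58 for IRF9. Of the restraints on the pathway, USP18, which removes ISG15 and blocks signalling at IFNAR2, had ratios of 4.58, 2.15 and 3.39. SOCS1, an inhibitor of the JAK kinases, had 0.63, 0.87 and 1.16. Apart from these restraints, the transcription factor gene IRF1 had 1.33, 1.44 and 1.15. SOCS1 was at most 2.37 FPKM in any library, so its ratios are compressed by the added constant. The MHC class I list had 21 measured genes with median ratios of 1.89, 1.49 and 1.22. None of them was among the 49, and 6 differed by at least 1 log2 unit.

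In KYSE30 the ratio was at least 2 log2 units below the mean of the other two lines for 7 genes (0.0778% of those measured), CMPK2, HCP5, DHRS2, HERC5, RSAD2, MX1 and TYMP. All but MX1 and DHRS2, 5 genes, were also lower by 2 against each of the other lines. CMPK2, a mitochondrial nucleotide kinase, was listed at 0.1 FPKM in untreated and 0 in treated KYSE30. It went from 0.35 to 35.7 FPKM (KYSE180) and from 0.29 to 36 (KYSE450). Its ratio was -0.15 in KYSE30 against 4.69 and 4.56, a line difference of -4.77. KYSE30 alone was near 0, whereas the other two lines were nearly alike.

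HERC5, the main ligase that attaches ISG15 to proteins, went from 0.07 to 0.39 FPKM (KYSE30), from 1.77 to 31.7 (KYSE180) and from 4.08 to 54.9 (KYSE450). RSAD2, which encodes the antiviral enzyme viperin, went from 0.05 to 1.57, from 0.06 to 14.3 and from 0.1 to 28.5 FPKM. The line difference of KYSE30 was -2.88 for HERC5 and -2.78 for RSAD2. RSAD2 was near 0 in all 3 untreated libraries, so the lines parted only in the treated level. MX1, a dynamin-like GTPase that blocks viral replication, went from 0.36 to 1.62 FPKM (KYSE30), from 8.79 to 320 (KYSE180) and from 0.4 to 4.12 (KYSE450). Only KYSE180 reached a high MX1 level, and its line difference was 3.80 against -2.37 in KYSE30.

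TYMP, the thymidine phosphorylase gene, went from 0.62 to 1.21 FPKM (KYSE30), from 4.09 to 27.8 (KYSE180) and from 1.23 to 15.8 (KYSE450). HCP5, a non-coding gene of the MHC region, went from 0.08 to 0.3, from 4.02 to 78 and from 1.33 to 16.6 FPKM. DHRS2, a short-chain dehydrogenase, went from 0.89 to 0.8, from 4.91 to 111 and from 1.32 to 7.25 FPKM. In all 3, KYSE30 was lowest and KYSE180 highest after treatment. HCP5 has a further entry among the long non-coding RNAs, at 0 in 5 libraries and at 0.825 FPKM in untreated KYSE450, so its level depends on which entry is read. For all 7 genes the line difference of KYSE30 lay more in the treated than in the untreated level.

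**Figure D2:**
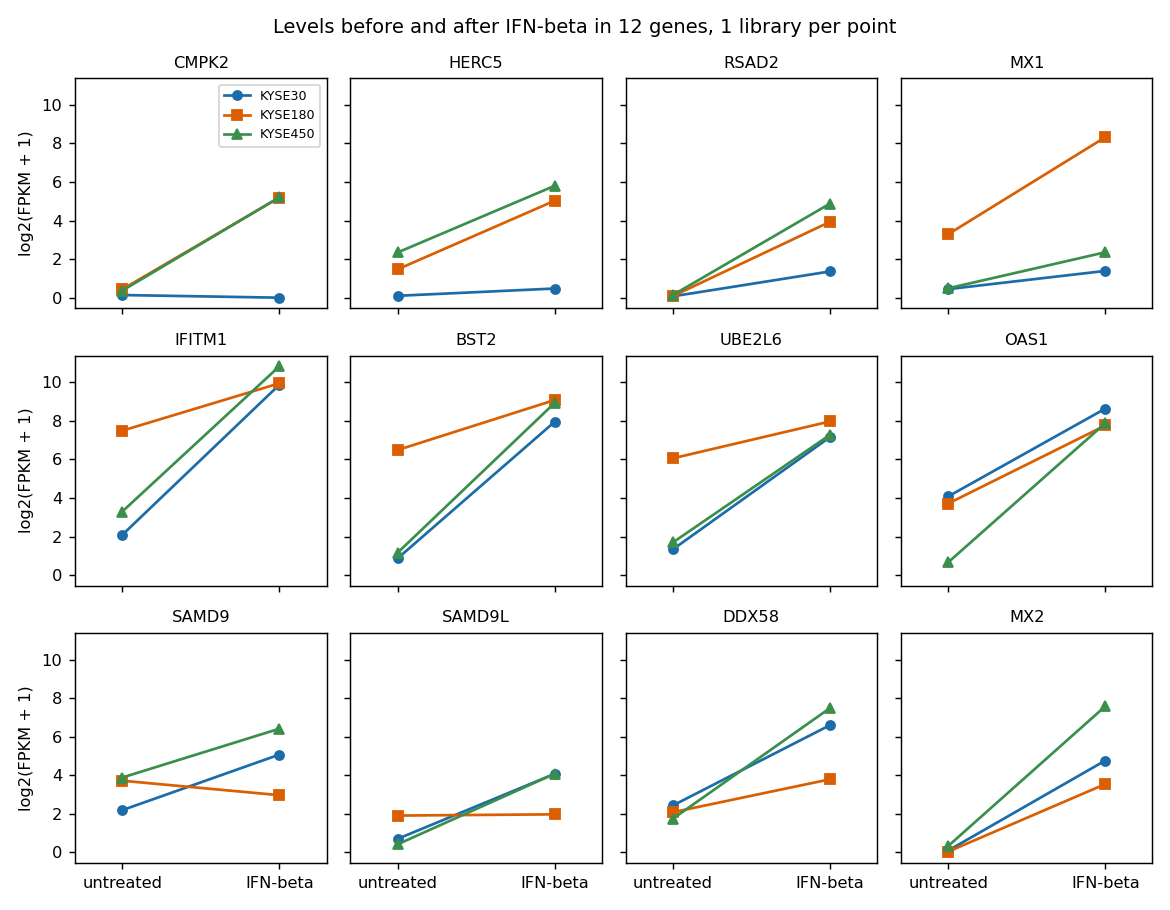
Level of 12 genes before and after IFN-β, as log2(FPKM + 1) without scaling between libraries, 1 library per point and 1 line per cell line. KYSE30 stays near 0 for CMPK2 and HERC5, and KYSE180 starts several log2 units above the other two lines for IFITM1, BST2 and UBE2L6 and ends close to them.

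KYSE30 was not low for interferon-stimulated genes in general. Its median ratio over the list of 61 was 3.33, and it had the largest of the 3 ratios for 20 of them. HERC5 and MX1, low in KYSE30, each lie beside a gene that responded there. Neighbours of TYMP, HCP5 and DHRS2 were not examined. HERC6 (chr4:88378739-88443111) ends 14005 bases before HERC5 (chr4:88457117-88506163) on the same strand, and had ratios of 3.04, 3.0 and 3.67. MX2 (chr21:41361943-41409390) lies 10913 bases before MX1 (chr21:41420304-41459214) on the same strand. MX2 went from 0.07 to 26.3 FPKM (KYSE30), from 0.03 to 10.7 (KYSE180) and from 0.26 to 191 (KYSE450). The order of the lines was thus different for MX1 and MX2, with KYSE180 highest for the first and KYSE450 for the second. CMPK2 (chr2:6840570-6866635, reverse strand) and RSAD2 (chr2:6865806-6898239, forward strand) overlap head to head, and both were low in KYSE30. No source used here says whether the counting used strand, and reads from the overlap cannot be assigned to either gene.

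Promoter windows of the genes that carry these contrasts are shown with matches to an ISRE-like motif in capitals. Each sequence runs 5′ to 3′ on the strand of the gene for 275 bases, of which 250 lie before the RefSeq start, and comes from RefSeq on GRCh38.p14. The motif searched was GAAA, any 2 bases and GAAA again, on both strands, except in RSAD2, where the capitals mark GAAANGAAA, a shorter spacing chosen after the sequences had been seen.
HERC5, chr4:88456869-88457143, forward strand: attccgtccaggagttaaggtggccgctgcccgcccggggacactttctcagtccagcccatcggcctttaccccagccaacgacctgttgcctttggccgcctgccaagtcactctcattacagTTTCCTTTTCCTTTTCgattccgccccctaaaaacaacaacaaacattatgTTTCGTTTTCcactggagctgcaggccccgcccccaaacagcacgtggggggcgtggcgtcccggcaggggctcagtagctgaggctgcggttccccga
MX1, chr21:41420308-41420582, forward strand: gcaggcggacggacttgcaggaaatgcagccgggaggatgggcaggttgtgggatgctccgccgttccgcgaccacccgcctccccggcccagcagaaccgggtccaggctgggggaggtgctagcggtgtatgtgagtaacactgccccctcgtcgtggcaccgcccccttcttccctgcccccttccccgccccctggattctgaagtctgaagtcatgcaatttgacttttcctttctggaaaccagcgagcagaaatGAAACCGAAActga
RSAD2, chr2:6865635-6865909, forward strand: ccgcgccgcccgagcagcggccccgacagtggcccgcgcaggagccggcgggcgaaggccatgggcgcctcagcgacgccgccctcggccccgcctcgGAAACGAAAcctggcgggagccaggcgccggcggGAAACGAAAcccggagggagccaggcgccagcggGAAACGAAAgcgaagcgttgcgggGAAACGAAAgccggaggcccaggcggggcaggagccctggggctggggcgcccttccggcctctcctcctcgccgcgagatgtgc
IFITM1, chr11:313790-314064, forward strand: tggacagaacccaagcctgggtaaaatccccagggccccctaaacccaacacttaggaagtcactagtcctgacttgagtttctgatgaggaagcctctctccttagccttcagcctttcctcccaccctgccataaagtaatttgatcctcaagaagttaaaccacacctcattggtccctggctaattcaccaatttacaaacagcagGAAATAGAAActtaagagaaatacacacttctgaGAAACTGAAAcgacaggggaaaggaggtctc
BST2, chr19:17405606-17405880, reverse strand: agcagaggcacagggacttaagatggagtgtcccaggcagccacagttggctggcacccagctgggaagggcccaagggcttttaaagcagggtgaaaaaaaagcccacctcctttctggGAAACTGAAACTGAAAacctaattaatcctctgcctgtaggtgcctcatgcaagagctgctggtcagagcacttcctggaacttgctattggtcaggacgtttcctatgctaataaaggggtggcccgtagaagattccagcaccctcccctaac
In HERC5 the capitals are the motif on the other strand.

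HERC5 had 3 matches, BST2 and IFITM1 had 2 each, and the MX1 window shown had 1, just after the start. MX1 has 3 windows, and that at chr21:41431800-41432099 also holds 1 match, at -196 from its start. In BST2, and for the first pair in HERC5, 2 matches overlap. Of all 35116 promoter windows of 300 bases in the RefSeq table, 1255 (3.57%) held a match. Counted per gene over any of its windows, 296 of 7413 genes at 5 FPKM or more did (3.99%). The shares that follow are also per gene. Of the 49 genes 40 had a window and 9 did not. A match was present in 14 of the 21 interferon-stimulated genes with a window (66.7%), in 2 of the 19 other genes (10.5%), and in 17 of 28 interferon-stimulated genes whose response did not differ by 2 log2 units (60.7%). The shorter spacing was present in 1097 of the 35116 windows (3.12%). Per gene, it was present in 9 of 36 of the 49 genes matched by symbol (25%). MX1 and CMPK2 had up to 2 such matches in a window. The RSAD2 window shown was the only 1 of all windows with 4 matches. The stretch shown overlaps the nearest of 3 CMPK2 windows by 140 bases. The other RSAD2 window (chr2:6877527-6877826) holds 1 match to the first motif, at -145 from its start, and the window shown holds none. Because the shorter spacing was picked from these sequences, its count there is a description only. A match is a run of letters in a window and shows neither binding nor its absence.

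The knockdown experiment gave levels of the same genes without added IFN-β, in other cultures and with a separate normalization. In its KYSE30 vector control, 6 of the 61 interferon-stimulated genes were under 1 FPKM, and CMPK2, HERC5 and MX1 were among these. The KYSE180 vector control also had 6, with RSAD2, MX2 and RTP4 among them. CMPK2 was listed at 0 in the KYSE30 vector control and at 1.51 FPKM in that of KYSE180. MX1 was at 0.265 FPKM in KYSE30 and 17.6 in KYSE180, and HERC5 at 0.566 and 2.28. These genes were low in KYSE30 in both experiments, whereas the median of the list in the vector controls was 12 FPKM in KYSE30 and 7.82 in KYSE180. ISG15 stood at 1073 FPKM in KYSE30 and at 32.6 in KYSE180. OASL, an oligoadenylate synthetase-like gene, was at 130 and 1.27 FPKM. RSAD2 departed from CMPK2 there, at 13.2 FPKM in KYSE30 against 0.464 in KYSE180. In the knockdown libraries the median of the list was 8.55 and 5.42 FPKM.

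**Figure D3:**
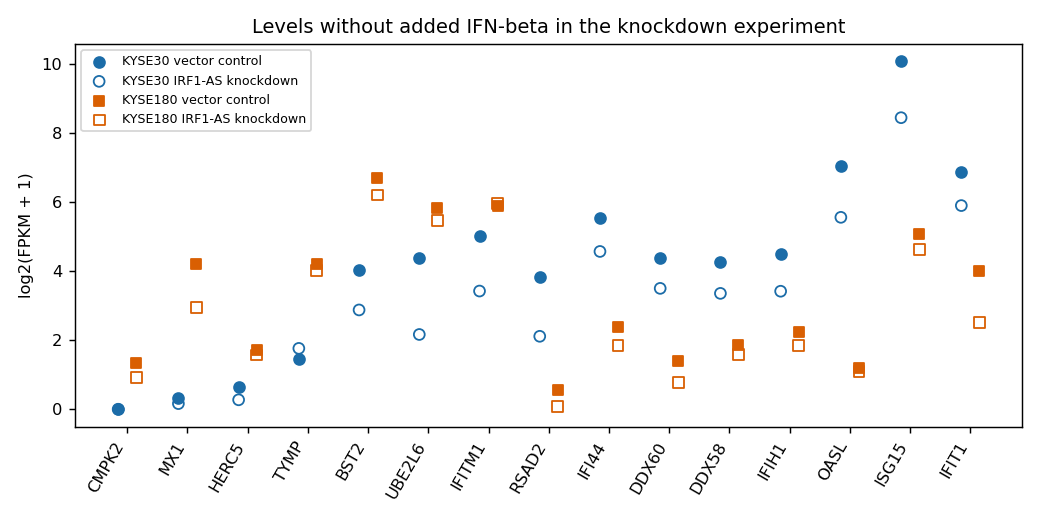
Level of 15 genes named in the text, or of the interferon-stimulated list, without added IFN-β in the vector control (filled) and IRF1-AS knockdown (open) libraries of KYSE30 and KYSE180, as log2(FPKM + 1), 1 library per point. CMPK2, MX1 and HERC5 lie near 0 in KYSE30, whose ISG15 and OASL lie above those of KYSE180.

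KYSE180 had the most genes below the mean of the other two lines, 22 (0.245% of those measured), of which 13 are in the interferon-stimulated list. The largest gaps were in genes that KYSE180 already expressed before treatment. IFITM1, a membrane protein that blocks virus entry, went from 179 to 988 FPKM (KYSE180), from 3.24 to 939 (KYSE30) and from 8.81 to 1824 (KYSE450). BST2, which encodes tetherin and holds budding virus at the cell surface, went from 88.7 to 541 FPKM (KYSE180), from 0.82 to 247 (KYSE30) and from 1.23 to 488 (KYSE450). UBE2L6, the conjugating enzyme for ISG15, went from 65.6 to 250, from 1.52 to 142 and from 2.23 to 154 FPKM in the same order. The lines ended closer together than they began, and it was the untreated level that set KYSE180 apart. The line difference of KYSE180 was -4.90, -4.59 and -3.52 for IFITM1, BST2 and UBE2L6. In its untreated level KYSE180 differed from the mean of the other two lines by 4.42, 5.16 and 4.20 log2 units, and in its treated level by -0.48, 0.57 and 0.68.

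BST2 and UBE2L6 were again higher in KYSE180 in the vector controls, at 102 and 55.6 FPKM against 15.2 and 19.6 in KYSE30. IFITM1 stood at 58.3 FPKM in KYSE180 and 31 in KYSE30. The gap between these lines was smaller than in untreated cells for all 3 genes. It was 2.67 against 5.37 log2 units for BST2, 1.45 against 4.46 for UBE2L6 and 0.89 against 5.13 for IFITM1. IFITM1 (chr11:313506-315272) lies inside the annotated span of IFITM2 and 4396 bases from IFITM3. These 3 IFITM genes are closely alike in sequence, so reads may be shared among them. IFITM3 had ratios of 4.20, 2.36 and 4.32, lowest in KYSE180 as for IFITM1, and IFITM2 had 0.88, 1.02 and 2.15.

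A second set of genes was low in KYSE180 after treatment. DDX58 (now RIGI), which encodes the viral RNA sensor RIG-I, went from 3.25 to 12.9 FPKM (KYSE180), from 4.42 to 96.4 (KYSE30) and from 2.36 to 179 (KYSE450). IFIH1, which encodes the related sensor MDA5, went from 4.38 to 14.9, from 4.54 to 62 and from 1.19 to 53.2 FPKM in that order. KYSE180 lay between the other lines before treatment and was the lowest after it. The line difference of KYSE180 was -2.99 for DDX58 and -2.28 for IFIH1.

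The helicase-like genes DDX60 (chr4:168216293-168318807) and DDX60L (chr4:168356735-168537786), which lie 37927 bases apart on the reverse strand, had line differences of -2.16 and -2.58 in KYSE180. DDX60 went from 4.57 to 22.9 FPKM (KYSE180), from 2.92 to 68.6 (KYSE30) and from 1.94 to 84.9 (KYSE450). IFI44L (chr1:78619922-78646145) reached 8.08 FPKM in treated KYSE180, 75 in KYSE30 and 77 in KYSE450, from at most 0.31 in untreated cells. Its neighbour IFI44, which begins 3650 bases further on, reached 151 FPKM in KYSE180 against 569 in KYSE30 and 310 in KYSE450. KYSE180 was thus the lowest treated line for both members of each pair.

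SAMD9 and SAMD9L, neighbouring genes on chromosome 7 (chr7:93099513-93118023 and chr7:93130055-93148369) whose products restrict viruses by stopping translation, had no ratio of 1 or more in KYSE180. SAMD9 went from 12.2 to 6.85 FPKM (KYSE180), from 3.58 to 32.8 (KYSE30) and from 13.8 to 84.7 (KYSE450). SAMD9L went from 2.77 to 2.94, from 0.63 to 15.9 and from 0.34 to 16 FPKM. Their ratios in KYSE180 were -0.67 and 0.12, against at least 2.03 in the other lines. PARP14, a mono-ADP-ribosyltransferase, went from 32.4 to 56.5 FPKM (KYSE180), from 8.27 to 126 (KYSE30) and from 5.09 to 136 (KYSE450), a line difference of -3.04. KYSE180 was the highest untreated and the lowest treated line for PARP14.

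The other 9 genes that were low in KYSE180 are outside the interferon-stimulated list, and all 9 had a ratio of -1.45 or less in KYSE180. IGFBP5, an insulin-like growth factor binding protein, went from 45.3 to 3.82 FPKM (KYSE180), from 2.83 to 2.22 (KYSE30) and from 0.91 to 0.14 (KYSE450). SLITRK6, a membrane protein of the SLITRK family, went from 21.4 to 3.11, from 37.1 to 55.3 and from 0.26 to 0.09 FPKM. SERPINB3, the squamous cell carcinoma antigen, went from 37.4 to 7.98 FPKM (KYSE180) and was at most 0.14 in the other lines. In these 6 libraries IGFBP5 and SERPINB3 were above 3 FPKM in KYSE180 alone. In the vector controls this held for SERPINB3, at 40.9 FPKM in KYSE180 and 0 in KYSE30, but IGFBP5 stood at 37.8 FPKM in KYSE30 and 18.3 in KYSE180.

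PRSS23, a secreted serine protease, went from 31.6 to 8.66 FPKM (KYSE180), from 80.5 to 93 (KYSE30) and from 5.72 to 18.8 (KYSE450). CCDC55 (now NSRP1), a splicing regulator, went from 7.39 to 1.87, from 3.55 to 4.88 and from 5.85 to 19.3 FPKM. Both were lower after treatment in KYSE180 and higher in KYSE450. The kinase gene ROCK2 went from 12.9 to 2.74 FPKM (KYSE180), the nucleoporin gene RANBP2 from 29.4 to 6.86, and the condensin gene SMC2 from 33.7 to 7.75. Their ratios of -1.80, -1.86 and -1.90 in KYSE180 stood against values between -0.19 and 0.43 in the other lines. CBWD6 (now ZNG1F) went from 24.2 to 1.52 FPKM (KYSE180), from 30.1 to 46.3 (KYSE30) and from 46.1 to 46.7 (KYSE450). It belongs to a family of near-identical copies, so its reads may have been split among them and its value is uncertain.

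The ratios of KYSE180 varied with gene length and base composition. Over 8704 protein-coding genes, the Spearman rho of the KYSE180 ratio was -0.27 with transcript length and 0.34 with GC content. In KYSE30 these were 0.10 and -0.09, and in KYSE450 0.30 and -0.02, all across genes within 1 library pair. The median ratio of KYSE180 went over 5 equal groups of genes, from 0.16 in the shortest to -0.14 in the longest, and from -0.20 in the lowest GC content to 0.18 in the highest. The 9 genes outside the interferon-stimulated list had a median length of 4321 bases and 39.7% GC, against 3274 bases and 47.6% for all 8704. After each ratio was centred on the genes of its length and GC group, DDX60 (-1.77), RANBP2 (-1.68), ROCK2 (-1.69) and SMC2 (-1.61) no longer reached 2 log2 units in KYSE180, and the other 18 genes did. This centring was chosen after the data had been seen.

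**Figure D4:**
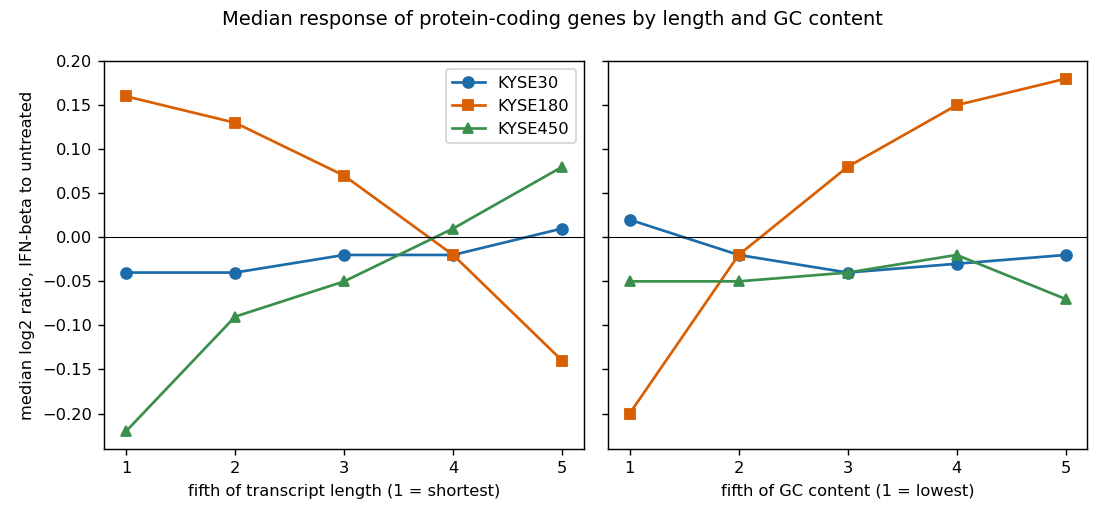
Median log2 ratio of IFN-β-treated to untreated cells over 5 equal groups of 8704 protein-coding genes by transcript length (left) and GC content (right), 1 line per cell line. KYSE180 runs from 0.16 to -0.14 with length and from -0.20 to 0.18 with GC content, and KYSE450 from -0.22 to 0.08 with length.

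KYSE180 was above the mean of the other two lines for 12 genes (0.133%), and for 6 of them by 2 log2 units against each. The 12 are MX1 (3.80), DHRS2 (3.59), HCP5 (2.60), CMPK2 (2.48), IL8, WDR74 and small RNA genes. HCP5 and CMPK2 are not among the 6, with differences of 1.48 and 0.13 against KYSE450 alone. IL8 (now CXCL8), a chemokine that attracts neutrophils, went from 4.14 to 62.4 FPKM (KYSE180), from 5.37 to 9.94 (KYSE30) and from 1.15 to 6.02 (KYSE450). It was the only 1 of 7 measured chemokine and cytokine genes to reach the threshold, with a line difference of 2.59. KYSE180 stood alone in the treated level, while the untreated levels were at most 5.37 FPKM.

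KYSE30 was above the mean of the other two lines for 12 genes (0.133%), of which 7 are in the interferon-stimulated list. Only 3, TDRD7, MMP10 and DAPL1, were above each of the other lines by 2 log2 units. IFITM1, UBE2L6 and BST2, described above, gave differences of 3.03, 2.30 and 2.11, but against KYSE450 alone these were 0.77, 0.72 and -0.24. TDRD7, a tudor-domain protein gene, went from 0.75 to 34.5 FPKM (KYSE30), from 8.9 to 19.5 (KYSE180) and from 2.37 to 18.1 (KYSE450), a difference of 2.80. IFI44 gave 2.09, and PARP10, another mono-ADP-ribosyltransferase gene, had ratios of 4.17, 1.53 and 2.73 and gave 2.04. SAMD9 gave 2.22, also mostly against KYSE180, and CBWD6 and SNORD27, described with the other lines, gave 2.46 and 2.85. In TDRD7, as in most of the 12, KYSE30 differed more in its untreated level, the lowest of the 3, than in its treated level. This held for 9 of the 12 genes.

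Among those 12 are 3 genes that were lower after treatment in the other lines and were barely expressed in KYSE30. MMP10, a stromelysin that degrades matrix, went from 130 to 18.1 FPKM (KYSE180) and from 26 to 8.97 (KYSE450), and was at 1.73 and 2.57 in KYSE30. HPGD, which inactivates prostaglandins, went from 28.1 to 2.52 (KYSE180) and from 31.1 to 11 (KYSE450), and was at most 0.07 in KYSE30. DAPL1, an epithelial gene, went from 84.9 to 22.9 and from 21.7 to 6.38, and was at most 0.18 FPKM in KYSE30. KYSE30 thus had little of these RNAs with or without IFN-β. In the vector controls MMP10 stood at 64.6 FPKM in KYSE180 and 3.14 in KYSE30, and DAPL1 at 46.1 and 0.205.

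Of 23 measured keratinocyte differentiation genes none was among the 49, a count near the share of all genes, and 10 differed by at least 1 log2 unit in some line. Their median ratio was -0.89 in KYSE180, 0.09 in KYSE30 and -0.23 in KYSE450. In KYSE180 7 of the 23 had a ratio of -1 or less, and in KYSE30 none had. For the 19 basal squamous genes KYSE30 had a median of 0.11, against -0.60 (KYSE180) and -0.58 (KYSE450). KYSE30 had little RNA of some squamous genes, and the added constant makes -1 hard to reach at such levels. KRT5 went there from 2.91 to 1.37 FPKM with a ratio of only -0.74. KRT14 and KRT17 had 0.08 and 0.03 there, and went from 2.61 to 2.83 and from 3.07 to 3.15 FPKM. Of the squamous epithelial markers, DSP, TP63, SFN, CDH1 and EPCAM were at 25.8 FPKM or more in KYSE30. Their ratios lay between -0.06 and 0.15 in KYSE30, between -1.17 and 0.17 in KYSE180 and between -0.21 and 0.32 in KYSE450. How far the added constant shaped the KYSE30 medians of both lists was not tested. Over all 8997 genes 181 had a ratio of -1 or less in KYSE180, 93 in KYSE450 and 7 in KYSE30.

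KYSE450 was above the mean of the other two lines for 9 genes (0.1%), of which 8 are interferon-stimulated, and for 4 of them (AXL, MX2, OAS1 and SLFN5) by 2 log2 units against each. OAS1, an oligoadenylate synthetase that activates RNase L, went from 0.58 to 235 FPKM (KYSE450), from 15.9 to 397 (KYSE30) and from 12.1 to 216 (KYSE180). SLFN5, a Schlafen family gene, went from 0.7 to 36.2 FPKM (KYSE450), from 11.3 to 49.5 (KYSE30) and from 16.8 to 42.8 (KYSE180). LGALS3BP, a secreted galectin-binding glycoprotein, went from 6.94 to 256, from 60.6 to 413 and from 166 to 546 FPKM. In all 3, KYSE450 started lowest, and its treated level was close to or below the other lines. The line differences were 2.55, 2.41 and 2.25. OAS1 (chr12:112906777-112933222) heads a cluster in which OAS3 and OAS2 follow, and those 2 genes had ratios of 5.19 and 7.43 in KYSE450. Each was within 2 log2 units of the mean of the other two lines, though OAS3 stood at 2.95 in KYSE180.

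For MX2, DDX58 and RNF213 KYSE450 was the highest treated line. MX2, the GTPase described above that restricts retroviruses, reached 191 FPKM there and had a difference of 2.89. DDX58 reached 179 FPKM and gave 2.33. BST2 and CMPK2 gave 2.48 and 2.29, against a small ratio in KYSE180 for the first and in KYSE30 for the second. RNF213, a giant ubiquitin ligase, went from 3.75 to 48.1 FPKM (KYSE450), from 6.5 to 14 (KYSE30) and from 19.4 to 28.2 (KYSE180), and gave 2.11. After centring for length and GC content RNF213 was at 1.96. AXL, a receptor tyrosine kinase, is the gene outside the interferon-stimulated list. It went from 5.22 to 29.2 FPKM (KYSE450), from 43.7 to 33.4 (KYSE30) and from 4.64 to 2.5 (KYSE180). AXL was thus higher after treatment in KYSE450 alone, up to near the level of KYSE30 in this experiment. In the vector controls AXL was lower in KYSE30, at 8.79 FPKM, and at 4 in KYSE180.

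KYSE450 was below the mean of the other two lines for 7 genes (0.0778%). RTP4, a receptor-transporting protein, was the only interferon-stimulated gene among them. It went from 0.04 to 0.96 FPKM (KYSE450), from 0.36 to 12.3 (KYSE30) and from 0.54 to 23.4 (KYSE180), a difference of -2.84. RTP4 in treated KYSE450 remained near the added constant of 1 FPKM, so the ratio there is compressed.

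The remaining 6 genes are SNORD27, SCARNA16, SNORA74B, SNORA74A, SCARNA6 and SNHG10. Small nucleolar and Cajal body RNAs guide chemical modification of ribosomal and spliceosomal RNA, and most are cut from introns of host transcripts. SCARNA16 went from 54.5 to 40.7 FPKM (KYSE30), from 33.3 to 110 (KYSE180) and from 42.4 to 5.39 (KYSE450). SNORA74B went from 23.4 to 17.1, from 19.7 to 60 and from 20.8 to 2.44 FPKM. Untreated levels ran from 33.3 to 54.5 FPKM for SCARNA16 and from 19.7 to 23.4 for SNORA74B, both lowest in KYSE180. Treated levels lay further apart, upward in KYSE180 and downward in KYSE450. SNORA74A and SNORA23 had ratios of 1.46 and 1.08 in KYSE180 and of -2.42 and -1.77 in KYSE450, in the same pattern. SNORD27 was listed at 41.1 FPKM in untreated KYSE450 and at 0 in the other 5 libraries, so its entries in all 3 lines rest on that 1 library.

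The same directions ran through this class of RNA. Over 21 small structural RNAs at 5 FPKM or more, 6 of them among the 49, the median ratio was -1.23 in KYSE450, 0.61 in KYSE180 and -0.05 in KYSE30. A ratio of -1 or less was found in KYSE450 for 14 of the 21. RMRP and RPPH1, RNA components of ribonucleases, together took 38.4% of the summed FPKM of the named genes in untreated and 26.5% in treated KYSE450, and between 37.2% and 41.9% in the other 4 libraries. The part of that shift in the ratios of the small RNAs was not tested.

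WDR74 and SNHG10 are genes that hold such RNAs. WDR74, a ribosome assembly factor, went from 130 to 311 FPKM (KYSE180), from 300 to 163 (KYSE30) and from 150 to 125 (KYSE450). Its span (chr11:62832342-62841809) holds the spliceosomal RNA gene RNU2-2P on chromosome 11 between 62841619 and 62841809, and reads of these genes cannot be told apart. SNHG10, a host of SCARNA13, went from 87.9 to 36.4 FPKM (KYSE450), from 61.4 to 59.8 (KYSE30) and from 145 to 229 (KYSE180). Its entry in the long non-coding part gave ratios of -3.44, 1.36 and -1.82, which differs for KYSE30.

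The 69 pairs of a gene and a line in which the threshold was reached can be divided by where the gap lay, in the untreated or the treated level of that line against the mean of the other two. For genes higher in KYSE30 the untreated level had the larger part in 9 of 12, and for genes lower in KYSE30 the treated level in 7 of 7. For genes lower in KYSE180 the treated level had the larger part in 14 of 22, and the untreated level in 8, with IFITM1, BST2 and UBE2L6 among these. For genes higher in KYSE450 the untreated level had the larger part in 5 of 9, among them OAS1, SLFN5 and LGALS3BP.

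**Figure D5:**
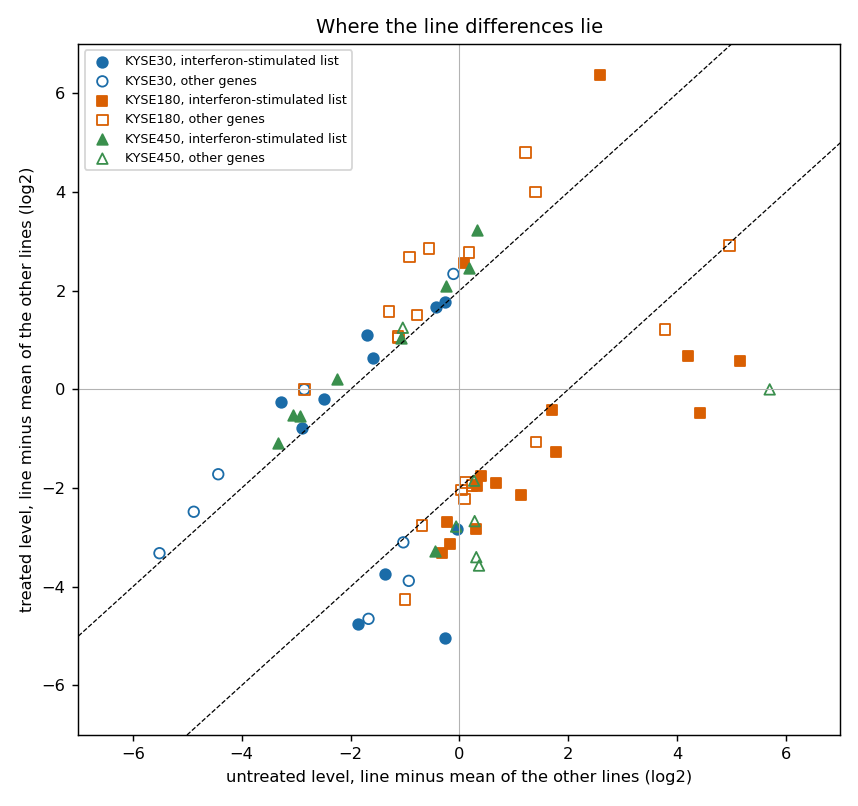
Treated level (vertical) against untreated level (horizontal) of a line, each minus the mean of the other two lines in log2 units, for the 69 pairs of gene and line past the threshold. Dashed lines mark a line difference of 2 in either direction. KYSE180 points at the right with a height near 0 are IFITM1, BST2 and UBE2L6, which differ in the untreated level.

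Untreated differences between KYSE30 and KYSE180 were compared with those of the vector controls. Among the 41 members found in the tables of both experiments, 11 differed by at least 2 log2 units between the untreated libraries, and 7 of these (63.6%) differed by at least 1 in the same direction in the vector controls and 1 in the opposite direction. The opposite one was IGFBP5. Over all genes the same direction was found for 453 of 553 (81.9%), with 5 opposite.

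The 2 genes nearest the threshold of 2 log2 units on each side are named here, whatever their distance from it and without the small RNAs. In KYSE30 the 2 genes just inside were PARP10 (2.04) and IFI44 (2.09) on the high side and TYMP (-2.07) and MX1 (-2.37) on the low side, and those just outside were NDRG1 (1.93), IFI44L (1.93), NT5E (-1.77) and IL8 (-1.72). In KYSE180 WDR74 (2.16), CMPK2 (2.48), SMC2 (-2.0) and SERPINB3 (-2.04) were inside, and TNFRSF10D (1.94), HERC5 (1.87), SLK (-1.98) and HPGD (-1.96) outside. In KYSE450 RNF213 (2.11), LGALS3BP (2.25), SNHG10 (-2.12) and RTP4 (-2.84) were inside, and RSAD2 (1.96), IFITM1 (1.87), HIST1H1D (-1.94) and HIST1H4K (-1.82) outside. Of the 61 interferon-stimulated genes, 42 (68.9%) differed by at least 1 log2 unit in some line.

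The 9 squamous epithelial markers were at 1 FPKM or more in all 6 libraries. Their summed level ran from 335 to 8366 FPKM in untreated and from 345 to 6997 in treated cells. The keratins KRT5, KRT14, KRT6A and KRT17 were at 1.37 to 6.33 FPKM in KYSE30 and at 46.7 or more in the other lines. TP63, SFN, DSP, CDH1 and EPCAM were at 25.8 FPKM or more in KYSE30. Summed leukocyte markers ran from 0.84 to 9.59 FPKM untreated and from 2.99 to 16.6 treated, mostly CD68, with MS4A1 at 0. Between 10993 and 11887 genes reached 1 FPKM in each library, and the scaling factors lay between 0.804 and 1.16. Without scaling, the median ratio of all genes was -0.02 in KYSE30 and KYSE180 and 0.44 in KYSE450.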

How the data were processed

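Total RNA of 6 libraries was described, with 4 knockdown libraries for levels only. Each library has a table of FPKM that the authors computed, per the file headers. TopHat, HTSeq and hg38 are named in the submitters' processing notes. The annotation and strand use were not found in labels or headers. FPKM of the 6 libraries were divided by median-of-ratios factors over 14130 genes above 0 in all 6 and taken as log2(FPKM + 1). The members and lists were chosen with earlier results of these data known. Named are the 8 largest differences per line and direction, up to 4 genes of each of 25 lists, the 2 genes on each side of the threshold and the signalling genes. Any further gene was picked with its values known. Some genes that this rule names are not reported here. Positions are from GENCODE 29 (GRCh38), which matched 19517 of 20502 symbols and all 49 members. Promoters are from RefSeq GRCh38.p14. Alternatives changed the scaling, the added constant, the FPKM minimum and the reference line. Python 3.11.15, numpy 2.4.6, pandas 2.3.3 and matplotlib 3.10.9 were used, and the scripts were tested on simulated data.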

Additional observations from a re-analysis of the deposited data

Results flagged for a closer look

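For 6 genes the response went up by at least 1 log2 unit in 1 line and down by at least that much in another, with 1 library per group, and the difference between the lines was not tested. CCDC55 differed by 2.54 log2 units between KYSE450, where it was higher after treatment, and KYSE180, where it was lower, and PRSS23 by 2.75 between the same lines. The 4 small RNAs were higher in KYSE180 and lower in KYSE450, by 5.02 for SCARNA16, 4.74 for SNORA74B, 3.88 for SNORA74A and 2.85 for SNORA23.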

How the results depend on the processing

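With 0.1 FPKM in place of 1, KYSE30 had 26 higher and 11 lower genes, KYSE180 had 41 lower, KYSE450 had 23 higher and 11 lower, and 84 passed in any line. With 5 FPKM, KYSE30 had 2 higher, KYSE180 10 lower and KYSE450 2 higher, and 24 passed in any line. Without scaling, KYSE30 had 7 higher, KYSE180 46 lower and KYSE450 29 higher, and 77 passed in any line, with 44 of the 49 among them. With a minimum mean of 20 FPKM, KYSE30 had 2 lower and KYSE180 14 lower, and 29 passed. Against KYSE180 alone, KYSE30 had 34 higher and 13 lower and KYSE450 26 higher and 17 lower. Against KYSE450 alone, KYSE30 had 11 lower. Against KYSE30 alone, KYSE180 had 34 lower and KYSE450 14 lower. When the difference had to reach 2 against each of the other lines, KYSE30 had 3 higher, KYSE180 6 higher and 13 lower and KYSE450 4 higher, and 35 of the 49 genes passed. BST2 in KYSE30 reversed to -0.24 against KYSE450 alone, and CMPK2 in KYSE450 to -0.13 against KYSE180 alone, and the ratios of the lines compared were within 0.24 of each other. Of the 69 pairs of gene and line, 69 kept the threshold with upper-quartile scaling, 66 with 0.1 FPKM, 63 with length and GC centring, 60 without scaling and 34 with 5 FPKM. The centring was applied to protein-coding genes only. Pairs of the small RNA genes, HCP5 and SNHG10 kept their values under it and could not lose the threshold. No paired analysis was possible because the results are differences between lines, each line gave 1 library per group, and no test was made. Depth is unknown, so low values carry an unknown counting error.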

Other observations

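The long non-coding part of the tables, which the rule left out, held 197 genes at a mean of 5 FPKM or more, and 34 of them (17.3%) differed by at least 2 log2 units in some line. Of the 34, 10 were listed at 0 in at least 1 library. MALAT1, an abundant nuclear RNA, went from 232 to 107 FPKM (KYSE30), from 182 to 84.3 (KYSE180) and from 99.7 to 422 (KYSE450). SNHG3 went from 1040 to 232 FPKM (KYSE30), from 58.1 to 294 (KYSE180) and from 119 to 188 (KYSE450).

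RPPH1 is listed in both parts of the tables with values that disagree. In treated KYSE180 it is at 120903 FPKM in the named-gene part and at 0.701 in the long non-coding part, and in untreated KYSE180 at 118833 and 18571.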
